A study of Homo sapiens with 45 samples.

Results

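The arrays examined here are those of A375 cells transfected with siRNA against FOXO3 (labelled siRNA-FOXO3A) and with siRNA against HSF2, 2 of the 45 arrays of the series. A375 is an established human melanoma line. The series profiled this line on Affymetrix U133 plus 2.0 arrays 48 hours after transfection, with 39 arrays for single targets, 3 for control siRNA and 3 for untreated cells. Each siRNA pool was used once, so FOXO3 and HSF2 have 1 array each and no replicate. The sample labels give 100 nM siRNA, and the methods give both a final concentration of 20 nM and 10 nM in the transfection medium.

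Both arrays belong to batch KD1, with 7 arrays of siRNA against CDC2, CDC25B, CDK7, CTNNB1, PCNA, RB1 and TCEA1. These 7, the reference arrays below, also come from transfected A375 cells taken 48 hours after transfection, and each carries the knockdown of its own target. The batch of the control siRNA arrays is not given. Every difference below is the log2 value in the FOXO3 or HSF2 array less the median of the 7 reference arrays for the same probe set, so both arrays are read against the same 7. A gene was called where this difference was at least 1.5-fold and its value lay outside the range of the 7. A gene entered this count where its mean over the 9 arrays was at least 8.59 on the log2 scale, the noise limit set by the BioB control probe set, which left 4857 genes.

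FOXO3 is a forkhead transcription factor that activates genes of cell cycle arrest, antioxidant defence, autophagy and cell death. AKT phosphorylates it when growth factors are present, and 14-3-3 proteins then hold it in the cytoplasm. HSF2 is a heat shock factor that binds the same elements as HSF1, the main activator of chaperone genes under heat and proteotoxic stress, and it has also been linked to the expression of cadherin adhesion genes.

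The FOXO3 siRNA array held the least FOXO3 mRNA. Its brightest probe set, 224891_at, read 7.41 on the log2 scale in the FOXO3 array, against 8.28 to 8.70 (median 8.40) in the reference arrays. This was a difference of -0.99, or 1.98-fold lower, and the value was the lowest of all 45 arrays. The HSF2 array lay within the range of the reference arrays at 8.45. The reference arrays had an SD of 0.176 (n = 7), and limma gave an unadjusted p of 0.000100 and an adjusted p of 0.913 over all probe sets. The probe set lies below the noise limit in this batch, so FOXO3 itself was not among the genes tested. Of the other 3 probe sets named for FOXO3 alone, 204131_s_at was at -0.58, 224889_at at -0.27 and the dim 231548_at at 0.33. The 3 probe sets assigned to both FOXO3 and its near copy FOXO3B were at -1.04, -0.73 and -0.55. No probe set carries the name of HSF2 in the table of gene names used. The fall of its mRNA was thus not checked here, and the array is called by its label. The paper reports both target mRNAs as reduced, relative to their median over all its arrays.

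**Figure D1:**
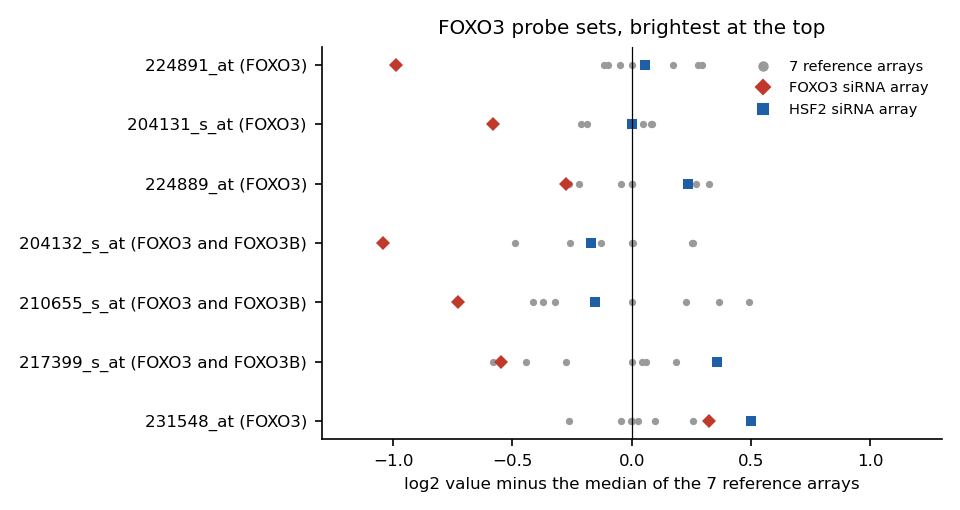
Log2 value minus the median of the 7 reference arrays (horizontal axis) for each probe set assigned to FOXO3, alone or with FOXO3B (vertical axis, brightest at the top). Each grey point is a reference array, the red diamond the FOXO3 siRNA array and the blue square the HSF2 siRNA array; the FOXO3 array is lowest of the 9 for 5 of the 7 probe sets.

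The relatives of the targets were dim, and most lay below the noise limit. FOXO1, which binds the same forkhead core, was at 0.25 in the FOXO3 array and -0.35 in the HSF2 array, on opposite sides of the range of the reference arrays. FOXO4 was at 0.12 and 0.54 in the same order. HSF1 read 8.13 in the HSF2 array, below the reference range of 8.23 to 8.83, a difference of -0.40, and 8.82 in the FOXO3 array, inside that range. HSF4 differed by less than 0.03 in either array. HSBP1, a protein that binds heat shock factors and restrains HSF1, was bright and level, at 0.04 in the FOXO3 array and 0.02 in the HSF2 array.

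The quality values of both arrays lay within or close to the range of the reference arrays. The correlation with the reference median over all probe sets was 0.995 for the FOXO3 array and 0.994 for the HSF2 array, and 0.994 to 0.996 for the reference arrays, each against the others. The difference between 3′ and 5′ probe sets of ACTB was 1.54 and 1.31, within the reference range of 1.01 to 1.76, and one 28S rRNA probe set read 9.16 in the FOXO3 array, just under the reference range of 9.20 to 9.93. One 18S rRNA probe set of the FOXO3 array was also under that range, at 5.67 against 5.72 to 6.71. The part of these values in the results was not tested. Of 10 markers of melanocytes, 9 had a name and 4 were above noise (MITF, SOX10, S100B and S100A1), and the log2 of their summed intensity was 12.60 in the FOXO3 array, just above the reference range of 12.36 to 12.57, and 12.50 in the HSF2 array. The summed fibroblast markers, none above noise, read 8.76 and 8.83, against 8.64 to 9.06. Only LYZ among 4 named leukocyte markers and KRT10 among 4 keratinocyte markers were above noise, and the summed levels of both lists lay within the range of the reference arrays.

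Few genes differed in either array. In the FOXO3 array 10 of 4857 genes were called (0.206%), of which 4 were higher (0.0824%) and 6 lower (0.124%). Of the same genes, 9 were called in the HSF2 array (0.185%), of which 2 were higher (0.0412%) and 7 lower (0.144%). When each reference array was read in the same way against the other 6, between 3 and 50 genes were called, 3 for CTNNB1 and 50 for RB1. Against each set of 6 reference arrays, the FOXO3 array gave 7 to 15 calls and the HSF2 array 7 to 8. The median absolute difference over the 4857 genes was 0.103 in the FOXO3 array and 0.0872 in the HSF2 array, within the reference arrays' 0.0781 to 0.125. Both counts thus lay within the range of other targets of the batch.

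**Figure D2:**
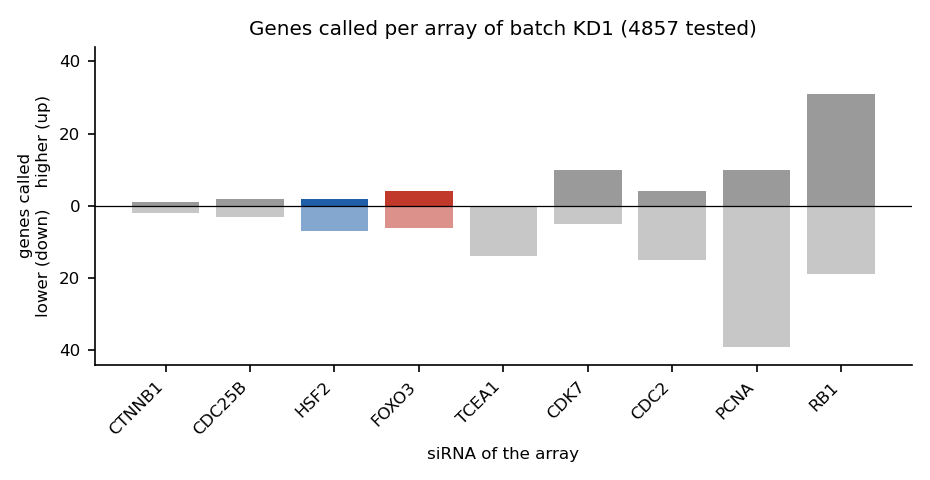
Number of genes called higher (upward bars) and lower (downward bars, paler) in each array of batch KD1, of 4857 tested. Reference arrays (grey) were set against the other 6 and the FOXO3 (red) and HSF2 (blue) arrays against all 7; the 10 and 9 calls lie between the 3 of CTNNB1 and the 50 of RB1.

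A test across all 54675 probe sets called none. In limma, with the spread taken from the reference arrays and each lone array assumed to vary like them, 0 probe sets (0%) had an adjusted p under 0.05 in the FOXO3 array, the HSF2 array, the pair against the reference arrays or the FOXO3 array against the HSF2 array. At an unadjusted p under 0.05 there were 2588 in the pair against the reference arrays. For the pair, that is below the share of 0.05 of all probe sets that would pass where none differed. This count covers the pair only and is no summary of the FOXO3 array, the HSF2 array or the difference between them. On simulated data the test recovered 125 of 200 probe sets changed by a log2 of 1 in the HSF2 contrast, and 197 and 198 of 200 changed by a log2 of 2 in the FOXO3 and HSF2 contrasts. Changes smaller than a log2 of 1, as most of those below are, were not part of this simulation. The calls below are differences in single arrays that a second culture has not repeated.

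The 1 gene called in both arrays was ND6, the subunit of respiratory complex I that is encoded on the light strand of mitochondrial DNA. It read 9.51 in the FOXO3 array and 9.86 in the HSF2 array, against 10.15 to 11.10 (median 10.61) in the reference arrays. Both values lay below all 7, at -1.10 and -0.75. That is 1 of the 10 genes (10%) called in the FOXO3 array and 1 of the 9 (11.1%) in the HSF2 array. Limma gave an adjusted p of 0.999 for the pair, which joins arrays of different siRNAs. ND6 was chosen by these same differences, so this is no separate test of it. The 8 other probe sets of mitochondrial transcripts above noise did not share the size of this difference, at -0.25 to 0.06 in the FOXO3 array and -0.10 to 0.07 in the HSF2 array. Of these, ND2 at -0.16, the brighter ATP6 probe set at -0.19 and an ND4 probe set at -0.13 were also below the reference range in the FOXO3 array, as were COX1 and ATP6, both at -0.10, in the HSF2 array, where a COX2 probe set was above it at 0.07. Among 39 siRNA arrays, each centred on its own batch, the FOXO3 array had the 2nd lowest and the HSF2 array the 4th lowest value of ND6.

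Another 3 genes were called in the FOXO3 array and lay outside the reference range in the HSF2 array without passing 1.5-fold there. YWHAZ encodes 14-3-3 zeta, a member of the family that binds phosphorylated FOXO proteins. It read 11.57 in the FOXO3 array and 11.72 in the HSF2 array, below the reference values of 11.90 to 12.35 (median 12.20). Its differences were -0.63 and -0.47, the lowest and the 3rd lowest of the 39 arrays. The other 3 bright probe sets of YWHAZ were at -0.21, -0.39 and -0.45 in the FOXO3 array and at 0.10, -0.13 and -0.16 in the HSF2 array, so that only the FOXO3 array was lower in every one.

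CCAR1, a coactivator of transcription and regulator of apoptosis, was the highest of the 39 arrays after FOXO3 siRNA and the 2nd highest after HSF2 siRNA. It read 10.25 and 9.98, against 9.27 to 9.94 (median 9.56), for differences of 0.69 and 0.42. Its other probe sets, both below noise, were at -0.13 and 0.12 in the FOXO3 array and -0.11 and -0.17 in the HSF2 array. ERGIC1, a membrane protein of the compartment between endoplasmic reticulum and Golgi, had the largest upward difference of the FOXO3 array, at 10.08 against 9.22 to 9.74 (median 9.32). Its difference of 0.76 was the highest of the 39 arrays, while the HSF2 array lay just under the reference range at -0.13. The 2 next brightest probe sets of ERGIC1, both below noise, had the same signs, with 0.28 and 0.38 in the FOXO3 array and -0.19 and -0.41 in the HSF2 array.

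The other 6 genes called in the FOXO3 array stayed within the reference range in the HSF2 array. EIF4E, which encodes the cap-binding factor of translation initiation, was furthest from the reference arrays among them. It read 8.99 in the FOXO3 array and 9.80 in the HSF2 array, against 9.59 to 10.36 (median 9.86). The difference of -0.87 was the lowest of the 39 arrays. The second bright probe set of EIF4E was at -0.33, and the dim 201436_at, which had the largest variance, was at 0.26.

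DR1, a repressor that binds the TATA-binding protein, read 8.98 against 9.23 to 9.83 (median 9.59), a difference of -0.60. Its 3 other bright probe sets were at 0.08, 0.12 and 0.19 in the same array, so the direction rests on 1 probe set. FZD6, a receptor for Wnt ligands, was at -0.60, with 8.40, below the noise limit, against 8.71 to 9.40 (median 9.0). CLDND1, a membrane protein with a claudin domain, was at -0.62, with 9.44 against 9.60 to 10.36 (median 10.06). Another bright probe set of CLDND1, with a reference median of 10.33, was at only -0.19 in the FOXO3 array and -0.07 in the HSF2 array. The HSF2 array was lower than the median too for these, at -0.11 for FZD6 and -0.29 for CLDND1, but inside the range.

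SECISBP2 and MTF2 were the 2 higher genes of this group. SECISBP2, which binds the element that directs selenocysteine into proteins, read 10.22 against 9.42 to 9.97 (median 9.58), a difference of 0.65. MTF2, an accessory subunit of Polycomb repressive complex PRC2, read 9.90 against 9.23 to 9.73 (median 9.27), a difference of 0.63 and the highest of the 39 arrays. They were at 0.25 and 0.22 in the HSF2 array. The other probe set of SECISBP2, below noise, was at 0.46 in the FOXO3 array and -0.48 in the HSF2 array. Those of MTF2, all below noise, were at -0.09 to 0.23 in the FOXO3 array. Limma's adjusted p in the FOXO3 array was 0.99986 for each of the 10 genes.

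The HSF2 array had 7 genes that stayed within the reference range in the FOXO3 array, and 6 of them were lower. WBP2, a coactivator that carries WW-domain binding motifs, was furthest from the reference median. It read 7.89 in the HSF2 array and 8.70 in the FOXO3 array, against 8.34 to 9.10 (median 8.87). Its difference of -0.97 was the lowest of the 39 arrays. TCEAL8, a protein related to transcription elongation factor A, was at -0.85, with 8.0 against 8.36 to 8.99 (median 8.85). Like FLVCR1, DSG2 and NPAS2 below, they were above the noise limit in the mean of the 9 arrays but below it in the HSF2 array.

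FLVCR1, a membrane transporter described as a heme exporter, read 8.09 against 8.42 to 8.90 (median 8.73), a difference of -0.64. Its second probe set, below noise, was at -0.37. DSG2, a desmosomal cadherin, read 8.46 against 8.90 to 9.26 (median 9.06), a difference of -0.60, and its second probe set, below noise, was at -0.59. Both were the lowest of the 39 arrays, and in the FOXO3 array they were at -0.04 and 0.03. NPAS2, a partner of BMAL1 in the circadian clock, was also lowest, at -0.59 on the probe set that represents it. Its 2nd brightest, below noise, was at 0.07.

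MALAT1, an abundant long noncoding RNA of the nucleus, read 10.76 against 11.14 to 11.63 (median 11.36) on its brightest probe set, a difference of -0.60. Of its other 11 probe sets, 10 were lower in the HSF2 array, from -0.75 to -0.17, and 1 was at 0.12. In the FOXO3 array those 11 were all higher, from 0.05 to 0.72, although the brightest was at -0.04. Of the 11, the only probe set above noise was at -0.17 in the HSF2 array and 0.18 in the FOXO3 array. ZNF385A, a zinc finger protein that binds RNA, was the 1 higher gene of this group. It read 9.33 against 8.36 to 8.89 (median 8.62), a difference of 0.71 and the highest of the 39 arrays. Limma's adjusted p in the HSF2 array lay between 0.464 and 0.753 for the 9 called genes.

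NFIC, a member of the nuclear factor I family, lay on opposite sides of the reference arrays. It read 8.73 in the FOXO3 array, below all of them, and 9.85 in the HSF2 array, above all of them, against 8.90 to 9.80 (median 9.26). The differences were -0.53 and 0.59, the lowest and the highest of the 39 arrays. The difference between the arrays was -1.12, and limma called no probe set in this comparison. The next brightest probe set of NFIC, below noise, went the other way in both arrays, at 0.66 and -0.15. For the 13 genes within the reference range in one of the arrays, limma's adjusted p for the FOXO3 array against the HSF2 array lay between 0.703 and 0.931, so none was shown to differ between them.

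**Figure D3:**
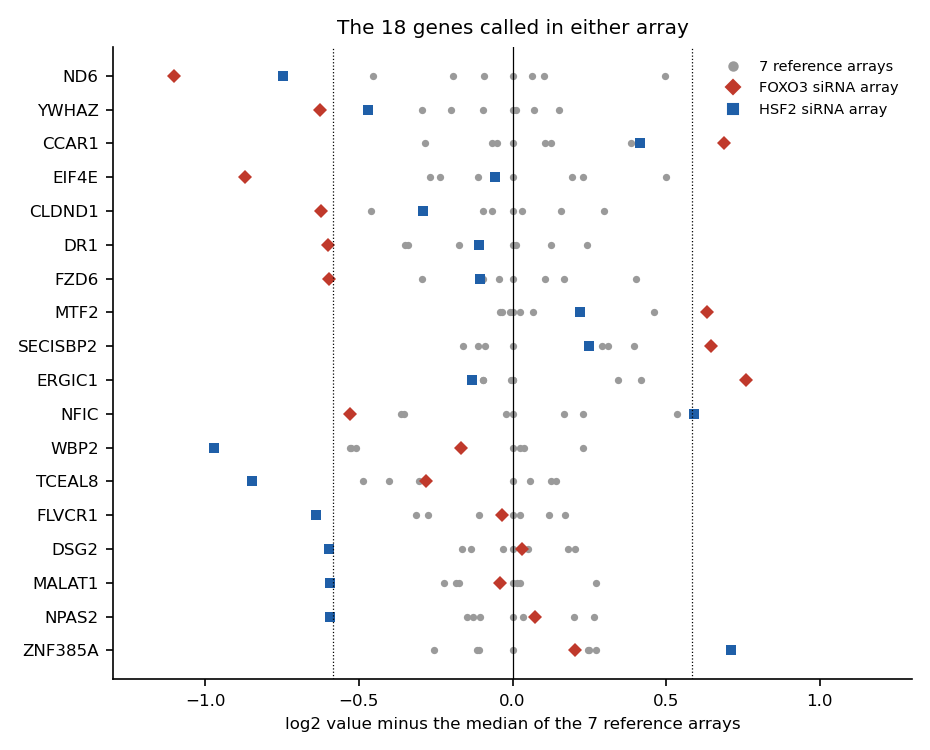
Log2 value minus the median of the 7 reference arrays (horizontal axis) for the 18 genes called in the FOXO3 or HSF2 array (vertical axis). Grey points are the reference arrays, red diamonds the FOXO3 array and blue squares the HSF2 array, and dotted lines mark 1.5-fold; ND6 is the only gene with both arrays beyond a line on the same side.

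A lower threshold of 1.25-fold, chosen after the data were seen, brought more genes into view. It called 190 genes in the FOXO3 array (3.91%), of which 118 were higher (2.43%) and 72 lower (1.48%), and 123 in the HSF2 array (2.53%), of which 48 were higher (0.988%) and 75 lower (1.54%). The reference arrays gave 84 to 498 in the same way. Of these genes, 15 were called in both arrays in the same direction, which is 7.9% of the FOXO3 list and 12.2% of the HSF2 list. Since both arrays are read against the same 7, a reference median that lies low or high for a gene moves both differences together, and the overlap has no test.

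The 8 shared lower genes were ND6, YWHAZ, EPHA2, HIPK2, LRATD2, the long noncoding RNA NORAD, IBTK and PRKDC. EPHA2, a receptor tyrosine kinase, read 8.51 in both arrays, just below the noise limit, against 8.69 to 9.03 in the reference arrays, for differences of -0.43 and -0.44. NORAD, which binds Pumilio proteins, was at -0.45 and -0.34. PRKDC, the catalytic subunit of DNA-dependent protein kinase, was at -0.42 and -0.32. HIPK2, a kinase of the DNA damage response, was at -0.36 in both. For NORAD, PRKDC and LRATD2 the FOXO3 array was the lowest of the 39.

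The 7 shared higher genes were EFCAB14, CCAR1, RXYLT1, WIPI2, GTF3C2, CADM1 and LYAR. WIPI2, a protein of early autophagosome formation, was at 0.43 and 0.35, the highest and 2nd highest of the 39 arrays. GTF3C2, a subunit of the RNA polymerase III factor TFIIIC, was at 0.35 and 0.37. RXYLT1, an enzyme of dystroglycan glycosylation, was at 0.38 in both, and CADM1, a cell adhesion molecule, at 0.47 and 0.35. QKI, an RNA-binding regulator of splicing, joined NFIC in the opposite set. It read 10.10 in the FOXO3 array and 10.95 in the HSF2 array, against 10.26 to 10.90, for differences of -0.50 and 0.35.

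**Figure D4:**
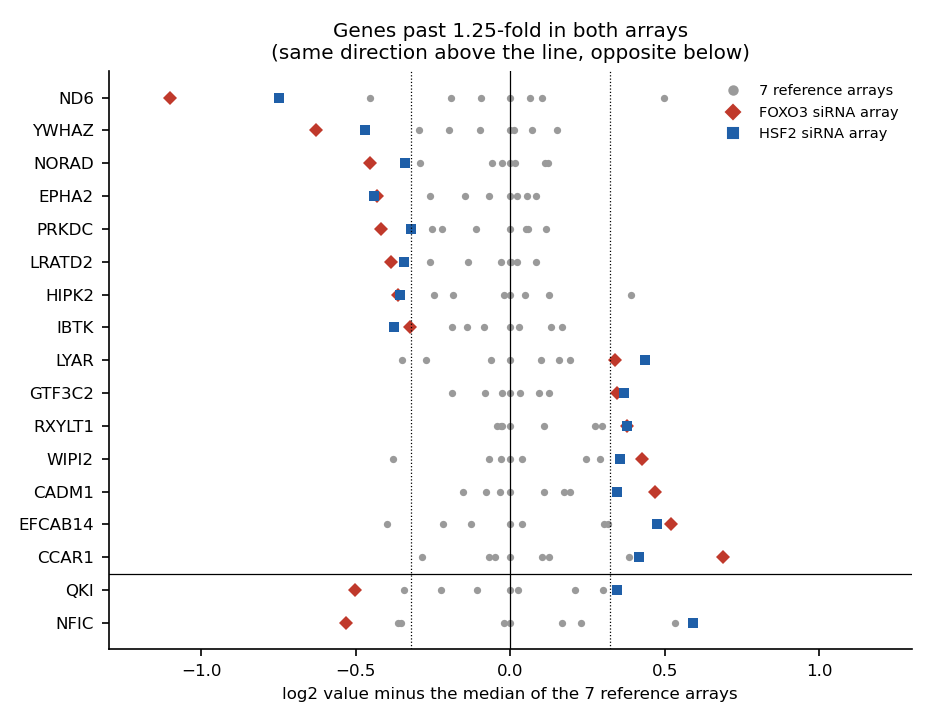
Log2 value minus the median of the 7 reference arrays (horizontal axis) for the 15 genes past 1.25-fold in both arrays in the same direction and, under the horizontal line, the 2 in opposite directions. Grey points are the reference arrays, red diamonds the FOXO3 array, blue squares the HSF2 array and dotted lines 1.25-fold; ND6 and YWHAZ lie furthest below and CCAR1 furthest above in the FOXO3 array.

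None of the 25 FOXO targets above noise was called in the FOXO3 array, where 0.206% of all genes were. A list this short would seldom hold a call at that share. Of 65 genes on 5 lists of FOXO targets, 25 were above noise, and 16 of these were higher and 9 lower than the reference median, with a median difference of 0.092. Over all 4857 genes, 2919 were higher and 1934 lower, with a median of 0.037. The same 25 genes had medians of -0.082 to 0.078 in the reference arrays, each against the others. Of the 25 genes, 6 lay above and 4 below the range of the reference arrays, where 18.6% and 7.29% of all genes tested did (25.9% on either side). In the HSF2 array 10 were higher and 15 lower, with a median of -0.012.

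Among the FOXO targets of cell cycle arrest, CDKN1C, the cyclin-dependent kinase inhibitor p57, was at 0.32 in the FOXO3 array, and MXI1, an antagonist of MYC, at 0.28, both above the reference range. BTG1, an antiproliferative factor, was below it at -0.19. CDKN1B, which encodes p27 and is a classical FOXO target, was at -0.25 inside the range, and CDKN1A, which encodes p21, at -0.23. In metabolism and insulin signalling, TRIB1, a pseudokinase, was at 0.36 and the receptor ERBB3 at 0.17, both above the range, and IRS2, an adaptor of the insulin receptor, was at 0.17.

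The antioxidant targets PRDX3, a mitochondrial peroxiredoxin, and CAT, which encodes catalase, were below the range in the FOXO3 array, at -0.24 and -0.09. The other 3 of this group lay within 0.10 of the reference median. Of the autophagy targets, MAP1LC3B was at 0.23 and ATG4B at 0.21, above the range. BECN1, a subunit of the lipid kinase complex that starts autophagy, was below it at -0.20, and GABARAPL2 was at -0.30 within it. None of the 7 named cell death targets, among them BCL2L11 (BIM), was above noise. Of the targets below noise, TNFSF10, the death ligand TRAIL, at 0.61 and ULK2, an autophagy kinase, at -0.61 were past 1.5-fold and outside the range in the FOXO3 array, at log2 values of 4.07 and 4.13.

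Across the 39 arrays, each set against the others of its batch, the 25 FOXO targets had a median of 0.109 in the FOXO3 array, the 2nd highest. The median of all 4857 genes tested was 0.036 in that array, also the 2nd highest. In the AKT1 siRNA array of batch KD2 the median of the 25 FOXO targets was -0.035, the 9th lowest. For the same targets it was -0.037 in the PIK3CB array, the 7th lowest, and 0.007 in the CDC37 array, the 18th lowest, both of KD2. The medians of all genes tested were 0.004, 0.013 and 0.032 in the AKT1, PIK3CB and CDC37 arrays. Of 12 genes above noise that act upstream of FOXO (PI3K-AKT signalling, 14-3-3 proteins and other regulators), 9 were lower in the FOXO3 array, with a median of -0.058, within the -0.086 to 0.093 of the reference arrays, and 1, YWHAZ, was called, where 0.206% of all genes were. Of these 12, 7 were lower in the HSF2 array. There SIRT2, a deacetylase that acts on FOXO proteins, was at 0.50 and USP7, a deubiquitinase, at -0.30, both outside the reference range.

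None of the 47 chaperones above noise was called in the HSF2 array, where 0.185% of all genes were. At that share, no call is the usual outcome for a list of this size. Of 72 heat shock proteins and chaperones of cytosol and mitochondria on 6 lists, 47 were above noise, and 26 of these were higher and 21 lower in the HSF2 array, with a median difference of 0.010. The median over all genes in that array was also 0.010. The reference arrays had medians of -0.065 to 0.077 for the same genes. In the HSF2 array 1 of the 47 lay above the reference range (PFDN1, at 0.25) and 6 below it, where 10.4% and 9.16% of all genes did (19.5% on either side). In the FOXO3 array 26 were higher and 20 lower, with a median of 0.010 and 0 called, where 0.206% of all genes were.

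The 6 below the range in the HSF2 array were HSPH1, HSP90AB1, HSPE1, CCT2, CCT3 and PFDN2. HSPH1, the HSP110 exchange factor of HSP70, read 11.50 against 11.55 to 11.87, a difference of -0.23. HSPE1, the co-chaperone of mitochondrial HSP60, was at -0.16 and CCT2, a subunit of the TRiC chaperonin, at -0.17. HSP90AB1, the constitutive cytosolic HSP90, was at only -0.08, and DNAJB1, the HSP40 that heat induces, was at 0.09 within the range. PPID, a cyclophilin that binds HSP90, was at -0.26 in both arrays and CDC37, the kinase co-chaperone, at -0.16 in the HSF2 array, both within the range.

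In the FOXO3 array, HSPA4 and HSPA14, members of the HSP70 superfamily, were at 0.18 and 0.28, above the reference range. BAG4, a co-chaperone that releases substrate from HSP70, was below it at -0.39, and HSPA9, the mitochondrial HSP70, was at -0.32 within it. The small heat shock protein HSPB1 was at 0.00 and -0.04 in the FOXO3 and HSF2 arrays. Of 9 other heat shock factor targets above noise, 6 were lower in the HSF2 array, with a median of -0.054 against -0.055 to 0.038 in the reference arrays.

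**Figure D5:**
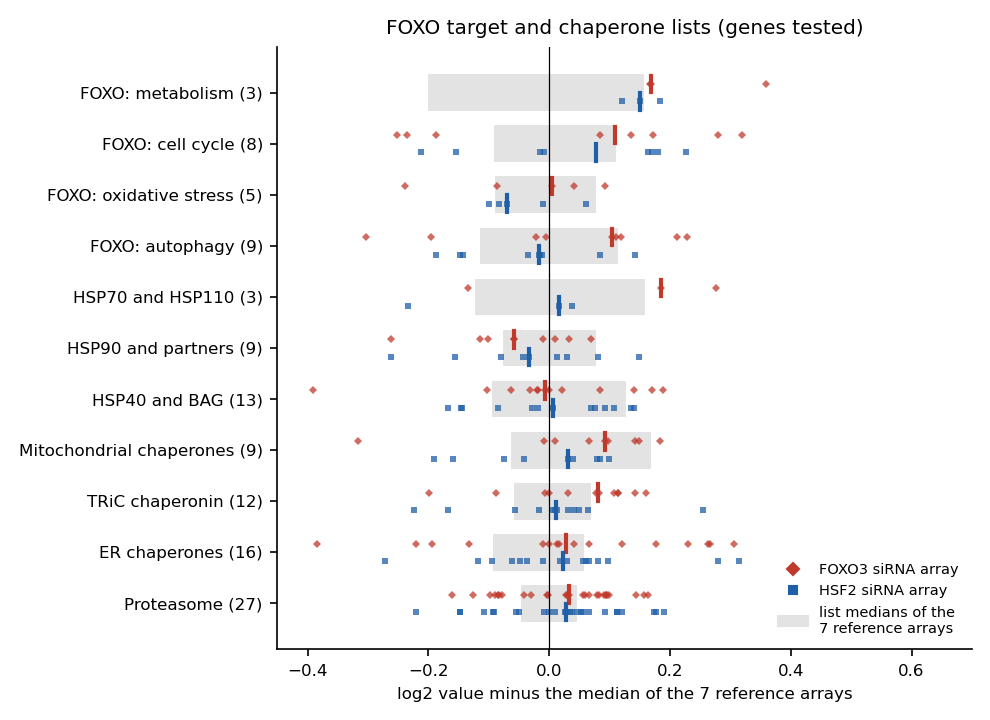
Log2 value minus the median of the 7 reference arrays (horizontal axis) for the genes above noise on lists of FOXO targets, chaperones and the proteasome (vertical axis, number of genes in brackets). Red diamonds are genes in the FOXO3 array, blue squares in the HSF2 array and thick ticks their medians. Grey bars are the range of the same list's median over the 7 reference arrays. No gene on these lists is called, where 0.206% of all genes are in the FOXO3 array and 0.185% in the HSF2 array.

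The promoters of these genes, as given by RefSeq (GRCh38.p14, 250 bases before to 50 after a start), were searched for the elements of the transcription factors on both strands. A promoter was found for 12 of the 18 called genes, 18 of the 25 FOXO targets and 38 of the 47 chaperones. The forkhead core GTAAACA was in the promoters of 3 of the 18 FOXO targets, of 0 of the 12 called genes and of 4.19% of all 27305 genes. A heat shock element of a head-to-head pair of units, GAANNTTC, was in 10 of the 38 chaperones, in 0 of the 12 called genes and in 8.21% of all genes. Extended by a further unit to GAANNTTCNNGAA, it was in 6 of the 38 chaperones, against 0.608% of all genes, and every extended match also holds the pair. A match is a run of letters in this window and not a measured binding site.

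The extended heat shock elements show which chaperone genes carry the letters that heat shock factors bind, and the element is in capitals, 5′ to 3′ on the strand of the gene, with 1 match shown for each gene.
HSP90AB1 (chr6:44247823-44247851, plus strand): tgagattgTTCTGGAAGCTTCtggattct
HSP90AA1 (chr14:102087112-102087140, minus strand): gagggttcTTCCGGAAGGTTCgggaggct
CHORDC1 (chr11:90223089-90223117, minus strand): cgcgaccgGAAAATTCGCGAAggttcctg
HSPD1 (chr2:197500060-197500088, minus strand): attttctgGAAAGTTCTGGAAccgagcga
DNAJA1 (chr9:33025268-33025296, plus strand): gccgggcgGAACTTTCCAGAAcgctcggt
DNAJB6 (chr7:157336865-157336893, plus strand): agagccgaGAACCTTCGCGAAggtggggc

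The mRNAs of these 6 genes lay close to the reference median in the HSF2 array, at -0.08 for HSP90AB1, 0.01 for HSP90AA1, 0.08 for CHORDC1, 0.04 for HSPD1, 0.01 for DNAJA1 and -0.15 for DNAJB6. Only HSP90AB1 among them lay outside the range of the reference arrays.

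The forkhead cores of the FOXO targets are shown in the same way, since these are the measured targets whose promoter window holds the letters that FOXO3 binds.
BTG1 (chr12:92146038-92146066, minus strand): ccgggtttattTGTTTACaagcggattac
CTSL (chr9:87725956-87725984, plus strand): tgggacagtcaGTAAACAagccacgaacc
MXI1 (chr10:110225983-110226011, plus strand): cgcggggagagGTAAACAaaccacgcgcg

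In the FOXO3 array BTG1 was at -0.19, CTSL, a lysosomal protease, at -0.01 and MXI1 at 0.28. The genes that hold the core thus did not differ in 1 direction.

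Of 34 cadherins and protocadherins, 4 were above noise and 1 was called, DSG2 in the HSF2 array, where 0.185% of all genes were. Their median there was -0.035, within the -0.170 to 0.109 of the reference arrays. CDH19 was above the reference range in that array at 0.33, and CDH2, the N-cadherin of melanoma cells, was at -0.02 there and at -0.18, below the range, in the FOXO3 array. Of the 4, 1 was higher and 3 were lower than the reference median in the HSF2 array. Below noise, CDH1 was past 1.5-fold and above the range in that array, at 0.59 and a log2 value of 4.07.

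Other stress and housekeeping groups held no called gene, where 0.206% of all genes were called in the FOXO3 array and 0.185% in the HSF2 array. Of 27 proteasome subunits, 16 were higher in the FOXO3 array (median 0.033) and 17 in the HSF2 array (median 0.028), against medians of -0.047 to 0.047 in the reference arrays. Of 16 chaperones of the endoplasmic reticulum, 5 were above the reference range and 1 below it in the FOXO3 array, with CRELD2 at 0.31, SEL1L at 0.26 and HERPUD1 at 0.23. Of all genes, 18.6% and 7.29% were, and the median of the 16 was 0.028, within the -0.093 to 0.058 of the reference arrays. HSP90B1, which encodes GRP94, was below the range at -0.27 in the HSF2 array, and MANF above it at 0.28.

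Of 25 respiratory chain genes, all of them encoded in the nucleus, 7 were above the reference range and 0 below it in the FOXO3 array, where 18.6% and 7.29% of all genes were. Their median was 0.070 in the FOXO3 array, where the median of all genes tested was 0.037. The reference arrays had medians of -0.026 to 0.064 for these respiratory chain genes. SDHA, a subunit of complex II, was at 0.37 in the FOXO3 array and NDUFS1, a subunit of complex I, at 0.29. The median of the 25 genes in the HSF2 array was 0.002. Of 24 ribosomal protein genes, 16 were lower in the FOXO3 array and 18 in the HSF2 array, with medians of -0.027 and -0.048, against -0.033 to 0.027. Of 13 ERK pathway and immediate early genes, 8 were lower and 5 higher in each array. Their medians were -0.068 and -0.117, against -0.168 to 0.077 in the reference arrays. In the FOXO3 array 0 lay above and 2 below the reference range, where 18.6% and 7.29% of all genes did. In the HSF2 array 1 lay above and 2 below, where 10.4% and 9.16% did. SPRY2, a feedback inhibitor, was below the range in both arrays, at -0.39 and -0.25. DUSP6, an ERK phosphatase, was below it in the FOXO3 array only, at -0.36. In the HSF2 array only, DUSP4 was below it at -0.12 and CCND1 above it at 0.18.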

How the data were processed

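The authors hybridised RNA of each culture to 1 Affymetrix U133 plus 2.0 array and normalised the arrays together by RMA, whose version is not given in the sources used here. The deposited values are linear intensities of 54675 probe sets, and they were taken to log2 with no further normalisation. Arrays have no read depth, so the number of arrays and the signal over noise limit the precision. Groups came from the sample labels and batches from the table of targets in the paper. Of the probe sets, 41097 had 1 gene name in the platform annotation used, 1801 had several and 11777 had none. For each gene, the probe set of highest mean over all 45 arrays was used. The noise limit, an intensity of 385, was 1.5 times the BioB 3′ control's median over the arrays.

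Each array was set against the median of the 7 reference arrays. Limma 3.58.1 (R 4.3.3) was run over all probe sets with Benjamini-Hochberg adjustment at 0.05. All p-values rest on the spread between arrays of different siRNAs. Both procedures were tested on simulated data. Python 3.11.15, pandas 2.3.3, numpy 2.4.6 and matplotlib 3.10.9 served for the rest. The members, the 33 gene lists and the rules were chosen with earlier results of these data known. Genes named were the targets and their families, all called genes, shared genes, and list members called or highest and lowest in their list. TNFSF10, ULK2 and CDH1 were named although below noise. Other list members below noise also met the fold and range criteria. These were IKBKB at 0.66 in the FOXO3 array, and the interferon response genes IFI6 at -0.71, HERC5 at -0.62 and OASL at -0.59 in the HSF2 array. List members outside the range of the reference arrays, and those with a promoter match, were named after their values were seen. Alternatives varied the reference, the fold threshold, the noise limit, the probe set and the centring. The siRNA sequences were not used here.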

Additional observations from a re-analysis of the deposited data

Results flagged for a closer look

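Probe sets without a gene name were outside the comparisons of genes, and 4 of the 410 above noise met the criteria used for calling a gene. In the FOXO3 array, 217894_at was at -0.62, 236599_at at 0.62 and 231169_at at 0.64. In the HSF2 array, 224549_x_at was at -0.89. The first 3 were at -0.15, 0.12 and -0.05 in the HSF2 array. No group of 4 to 10 replicate arrays exists, so no array was tested as an outlier.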

How the results depend on the processing

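With the mean of the reference arrays, or with arrays centred on their own median, counts stayed within 1.5 times. Calls were 1 (FOXO3 array), 0 (HSF2 array), 0 shared and 0 specific at 2-fold, and 190, 123, 15 and 230 at 1.25-fold, a threshold added after the data were seen. With a noise limit of 1 times BioB they were 21, 17, 2 and 28, and with none 174, 461, 3 and 494. Without the range criterion 20 genes were specific. With the probe set of largest variance the FOXO3 array had 19 calls and the HSF2 array 5, and 3 genes reversed: EIF4E (0.26, FOXO3 array), NFIC (-0.15) and NPAS2 (0.031) in the HSF2 array. Against the 3 control siRNA arrays, of unstated batch, counts were 327, 243, 137 and 196, and list medians were 0.101 and 0.071 for chaperones in the FOXO3 and HSF2 arrays and 0.076 for FOXO targets in the HSF2 array; the cause was not tested. FOXO3 was at -0.43 over the median of its probe sets and at -1.38 against all other arrays. Limma called 2 probe sets in the HSF2 array with an intensity trend (1 higher, 1 lower) and 1 in the FOXO3 array without RB1. Leaving out each reference array gave 7 to 15 calls in the FOXO3 array, 7 to 8 in the HSF2 array, 1 shared, 9 to 15 specific, FOXO3 at -1.07 to -0.96, FOXO target medians of 0.069 to 0.103 and -0.019 to 0.018, and chaperone medians of 0.006 to 0.033 and -0.007 to 0.023. The alternatives for the HSF2 target were not run, since no probe set carries its name here. No paired analysis was possible because each siRNA has 1 array and carries no replicate number.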
